A study of Arabidopsis thaliana with 4 samples.

Results

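The regions described here are stretches of the Arabidopsis genome where peaks of H3K4me3, the trimethylation of lysine 4 of histone H3, were longer in both osmotic-stress libraries than in both control libraries while their height stayed close. They were chosen by peak length and height in these same libraries: overlapping peaks on chromosomes 1 to 5 were merged, the smaller stress length had to be at least 1.5 times the larger control length, and the log2 change in height had to lie within 0.585 of 0. The length of a library in a region is the summed length of its peaks there, and the height, called signal below, is the highest pileup (fragments stacked at a summit) per 1000000 fragments. The rule took 900 of the 11925 regions with a peak in every library (7.547%), of 16070 regions in all. With stress and control exchanged, the same rule took 1 region.

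The stress group was Col-0, the reference accession, grown on 1/2MS medium with 250 mM sorbitol, and the control group was Col-0 on 1/2MS without it. There were 2 libraries in each group. The labels give root as the tissue, and the study sampled root tips after 10 days, so cell types were mixed and a change in their proportions cannot be told apart from a change within cells. CUT&Tag, the assay used, brings a transposase to an antibody-bound mark and cuts out the surrounding fragments. Stress replicates 1 and 2 held 15974955 and 25714827 fragments, against 9011630 and 6396842 in control replicates 1 and 2. Depth and condition therefore cannot be told apart, and the precision of a peak edge is set by the fragments at the flank. Of 13 root regulators used to check the tissue, SHR, PLT2 and TMO5 had a peak in all 4 libraries, 5 had one in 1 to 3 libraries and 5, WOX5 among them, in none.

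H3K4me3 is laid down around the starts of transcribed genes, usually over the first nucleosomes after the start, and the domain thins out along the gene body. Its height and its breadth are separate properties of a domain. In Arabidopsis the mark has also been studied under dehydration, where its breadth over stress genes was one of the properties examined. A caller such as MACS places the edge of a peak where coverage falls below its threshold, so the length of a peak also depends on depth and on the background.

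The edge that moved is shown for 6 of the 25 largest length ratios. These were taken where no untranslated exon was annotated, on the side with most added bases. Edges in untranslated exons were thus left out by choice. The rule chose these regions by peak length, so a moved edge is part of their definition. Each sequence runs 5′ to 3′ in the direction of the named gene on TAIR10.1 from RefSeq and crosses the outer edge of the control peaks, on the side away from the 5′ end of the region. The lower-case bases lay in a control peak, and the 100 bases in CAPITALS lay in a peak of both stress libraries and of neither control library.
GNA1: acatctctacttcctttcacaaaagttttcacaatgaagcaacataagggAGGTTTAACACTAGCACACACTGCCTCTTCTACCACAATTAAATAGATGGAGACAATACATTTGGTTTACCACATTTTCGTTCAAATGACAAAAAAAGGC
AT4G22610: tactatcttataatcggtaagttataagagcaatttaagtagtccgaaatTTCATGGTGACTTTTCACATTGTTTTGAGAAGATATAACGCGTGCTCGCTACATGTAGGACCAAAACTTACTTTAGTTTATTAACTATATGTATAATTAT
ABCC4: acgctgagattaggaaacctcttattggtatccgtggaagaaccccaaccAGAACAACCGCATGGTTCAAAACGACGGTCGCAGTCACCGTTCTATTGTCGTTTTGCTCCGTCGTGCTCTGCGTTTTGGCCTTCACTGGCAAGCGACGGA
AT4G24830: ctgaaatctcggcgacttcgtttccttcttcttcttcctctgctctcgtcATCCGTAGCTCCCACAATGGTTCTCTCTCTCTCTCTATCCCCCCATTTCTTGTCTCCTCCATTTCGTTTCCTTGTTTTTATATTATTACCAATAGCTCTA
TRM9: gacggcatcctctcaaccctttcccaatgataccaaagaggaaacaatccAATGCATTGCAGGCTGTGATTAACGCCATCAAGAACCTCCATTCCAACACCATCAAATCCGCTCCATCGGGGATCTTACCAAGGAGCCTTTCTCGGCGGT
CAMBP25: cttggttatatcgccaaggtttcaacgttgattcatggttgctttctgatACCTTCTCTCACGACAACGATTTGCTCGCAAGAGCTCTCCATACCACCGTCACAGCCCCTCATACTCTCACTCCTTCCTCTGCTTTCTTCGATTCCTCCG
The edge at GNA1 (chr5:5143434-5143583, minus strand) lay beyond the end of this gene, in an intron of PSRP3/2, a gene of a plastid ribosomal protein on the opposite strand. That of AT4G22610 (chr4:11902720-11902869, minus strand) lay between genes, just before the start of this gene for a lipid-transfer-like protein. The edges at ABCC4 (chr2:19575173-19575322, plus strand), TRM9 (chr4:331280-331429, plus strand) and CAMBP25 (chr2:17114548-17114697, minus strand) lay in coding sequence. The edge at AT4G24830 (chr4:12795704-12795853, minus strand) crossed from coding sequence into an intron. GC content was 36%, 31%, 54%, 41%, 51% and 53% in the added bases of the 6 sequences in the order shown, against 36%, 28%, 48%, 50%, 48% and 40% in their control-peak bases. It was higher on the added side in 4 of the 6, equal at GNA1 and lower at AT4G24830.

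Over the 900 widened regions, median peak length was 1087.5 and 1165.5 bp in stress replicates 1 and 2, against 561 and 502 bp in control replicates 1 and 2. The ranges were 440 to 3770 and 458 to 3869 bp in stress, against 266 to 2205 and 270 to 2036 bp in control. Peaks covered 1095.7 and 1162.1 kb of these regions in stress, against 576.92 and 520.19 kb in control. Over all 11925 regions the medians were 1072 and 1129 bp in stress, against 898 and 807 bp in control. The stress medians of the widened regions were thus close to those of all regions and their control medians were lower, which a rule on this ratio favours. The ratio of the smaller stress to the larger control length had a median of 1.70 in the widened regions (range 1.5 to 4.30, quartiles 1.58 and 1.93), with 192 regions at 2 or more and 20 at 3 or more. Over all regions with a peak in every library this ratio had a median of 1.11, and both stress lengths exceeded both control lengths in 75.9% of them, so the widened regions are the upper end of a shift shared by most regions.

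**Figure D1:**
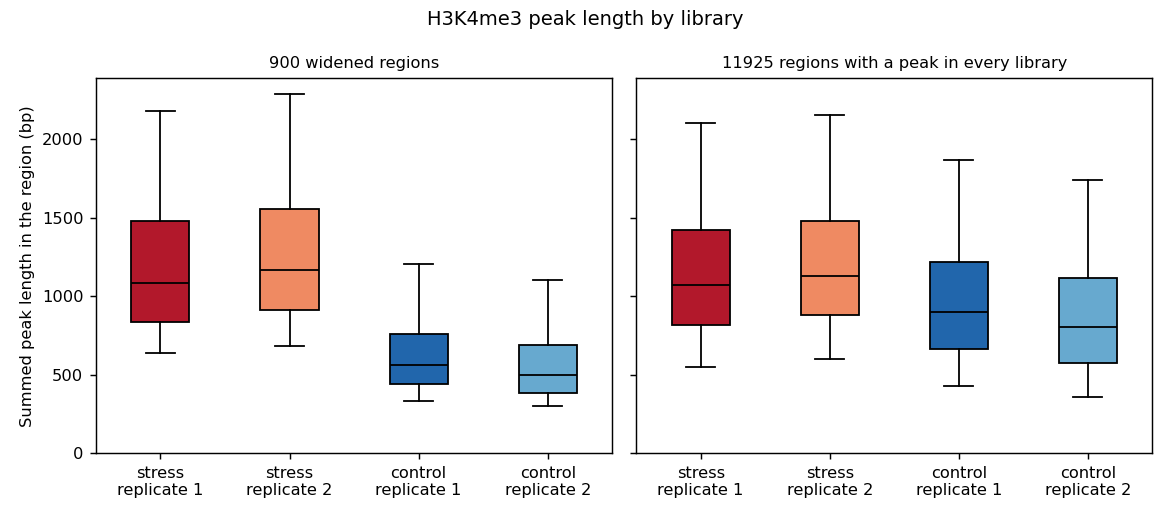
Summed H3K4me3 peak length (bp) in each library over the 900 widened regions (left panel) and over all 11925 regions with a peak in every library (right panel). Boxes span the quartiles, the line is the median and whiskers run from the 5th to the 95th percentile of regions; stress medians are alike in both panels (1087.5 and 1165.5 bp against 1072 and 1129 bp), whereas control medians are 561 and 502 bp in the widened regions and 898 and 807 bp in all.

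The share of widened regions was highest where control peaks were short and weak. Control length is the denominator of the ratio that chose the members and control signal enters the height limit, so these shares are in large part set by the rule and describe the members only. The regions were put in 5 bins of about equal number. In the bin with the shortest mean control length (281 to 580 bp), 21.7% were widened, which made up 518 of the 900. The next bins gave 7.80%, 4.44%, 2.43% and 1.34%, the last for control lengths of 1258 to 3538 bp. By mean control signal the shares were 14.3%, 9.89%, 5.91%, 5.03% and 2.56%, again highest in the weakest bin. The shortest widened control peaks, of 266 and 270 bp, stood at the shortest peak length of their libraries.

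**Figure D2:**
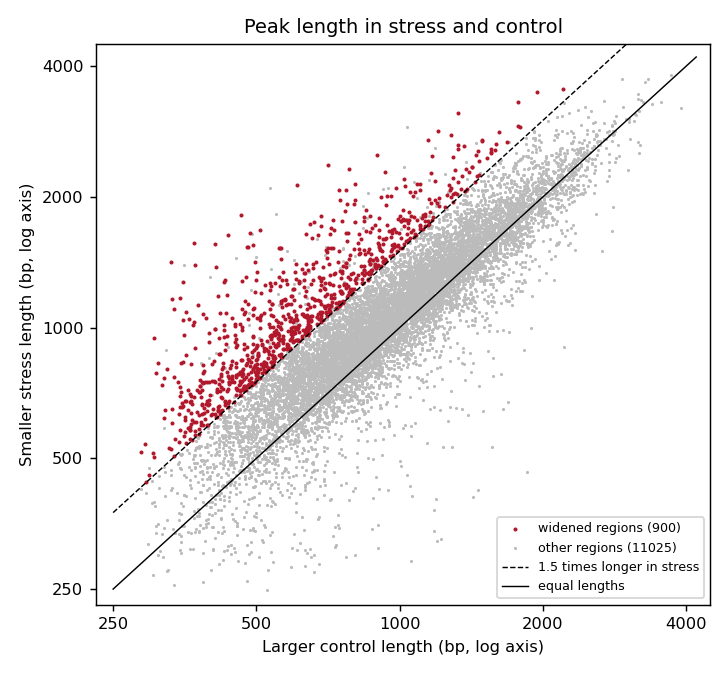
Smaller stress length against larger control length (bp, both axes log) for the 11925 regions with a peak in every library, with the 900 widened regions in red. Points above the solid line were longer in both stress libraries, and the dashed line marks the length ratio of 1.5 that chose the members; grey points above it changed in signal by more than the limit.

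Libraries of the same condition also differed in peak length. Stress replicate 2, with 1.61 times the fragments of stress replicate 1, had a median length 1.04 times as long, and was longer by 1.5 times or more in 1.86% of all regions. Control replicate 1, with 1.41 times the fragments of control replicate 2, had a median length 1.09 times as long, and was longer by 1.5 times or more in 8.77%. Stress replicate 1 against control replicate 1, at a depth ratio of 1.77, was longer by 1.5 times or more in 13.2%. When each library's lengths were divided by its own median, 235 regions were widened and 24 narrowed, and all 235 were among the 900. With 1 library left out, the rule took 1571 regions without stress replicate 1, 1056 without stress replicate 2, 2635 without control replicate 1 and 1598 without control replicate 2. The part of depth in the widening of these regions was not tested.

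Peak height stayed close in the widened regions because the rule required it. Median signal was 10.7 and 10.4 per 1000000 fragments in stress, against 9.21 and 9.69 in control. Over all regions it was 13.2 and 12.4 in stress, against 12.2 and 12.5 in control, so that the widened regions were lower than the whole in every library. In the widened regions the median log2 change in signal was 0.13 (range -0.57 to 0.58). Mean signal was higher in 600 of them (66.7%) and lower in 300. Over all 11925 regions the median change was 0.012, with 6160 higher (51.7%) and 5765 lower. In the widened regions the median change was 0.075 after division by the library median and 0.080 in fold enrichment. Median fold enrichment over the local background, as the authors deposited it, was 3.37 and 3.51 in stress, against 3.18 and 3.24 in control. Median −log10 q was 36.8 and 60.6 in stress, against 16.9 and 12.7 in control, and it follows depth as well as height.

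By limma on log2 length with Benjamini-Hochberg adjustment, 748 of the 900 regions (83.1%) were called longer under stress at an adjusted p under 0.05, and 0 shorter (also 0 at an unadjusted p under 0.05). Over all 11925 regions 12.2% were called longer and 0.109% shorter. With lengths divided by the library median, 78 of the 900 (8.67%) were called longer, against 0.738% of all regions. A block on the replicate number gave 115 (12.8%), against 1.19% of all regions. The rule used this contrast, so nothing is read from the members' count. Without control replicate 1, 743 of the 900 were called longer, against 28.2% of all regions, and leaving out any other library gave 0, since no region at all then passed the adjustment. In log2 signal, 154 widened regions (17.1%) were called higher under stress and 35 (3.89%) lower, against 10.2% and 11.9% of all regions. With each library divided by its median the widened regions gave 145 higher and 74 lower (16.1% and 8.22%), against 9.52% and 19.6% of all regions. With fold enrichment they gave 133 higher and 29 lower (14.8% and 3.22%), against 9.48% and 5.74%. With 1 library left out, 60 to 98 were called higher, the fewest without stress replicate 2, against 5.02% to 6.42% of all regions. From 5 to 42 were called lower, the fewest without stress replicate 2 and the most without stress replicate 1, against 5.64% to 14.2%. These counts are a description too, since the rule limited the change in signal. The labels do not say whether replicates came from separate plantings, so these p-values measure only the spread between the libraries.

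Most widened regions lay at gene starts, as H3K4me3 peaks in general do. A protein-coding gene start lay inside 690 of the 900 (76.67%), against 80.92% of all regions, and a start lay inside or within 1 kb of 868 (96.44%), against 96.91%. A single start lay in 559 regions (62.11%) and 2 or more in 131 (14.56%), of which 107 held a divergent pair of genes. Over all regions these shares were 67.61% and 13.31%. Of the 210 widened regions without a start, 187 overlapped a protein-coding gene and 6 overlapped no gene. Widened regions were spread over the chromosomes, with 6.81% to 7.82% of the regions of each being widened. In 49 cases 2 neighbouring regions were both widened, and the longest run was 3, on chromosome 2 from 11344463 to 11382012. No background was computed for these counts, and clustering was not tested.

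The bases gained under stress lay mainly on the gene-body side. Added bases, those within a peak of both stress libraries and of neither control library, had a median of 431 bp a region (quartiles 311.8 and 629, highest 1794), against 127 bp over all regions. They came to 451.1 kb in the widened regions, where bases in both control libraries and neither stress library came to 2.351 kb. In the 559 regions with 1 start, 77.06% of the added bases lay downstream of the control peaks in the direction of the gene, 16.16% upstream and 6.79% between control peaks. More bases were added downstream than upstream in 478 (85.51%), and more upstream in 77 (13.77%). With a minimum of 100 bp a side, 421 regions (75.31%) were extended downstream only, 84 (15.03%) on both sides and 30 (5.37%) upstream only.

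This downstream side was common to all regions. Over the 8063 regions with a peak in every library and 1 start, 85.22% of the added bases lay downstream, 10.73% upstream and 4.05% between control peaks. More bases were added downstream than upstream in 77.91% of them and more upstream in 8.36%. Extension by 100 bp or more was downstream only in 48.47%, on both sides in 2.59% and upstream only in 2.17%. The widened regions thus held larger shares of all 3 kinds of extension. A minimum of 100 bp a side is easier to reach where more bases were added, and the difference was not tested. Among the widened regions, mean signal was higher under stress in 78.57% of those extended on both sides. The share was 65.8% of those extended downstream only and 60% of those extended upstream only, against 51.7% of all 11925 regions.

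The edges of the peaks gave the same picture in distances from the gene start. The 3′ edge of the widened regions lay at a median of 858 and 924 bp into the gene in stress, against 444 and 427 bp in control. Over all regions with 1 start it lay at 855 and 910 bp in stress, against 687 and 638 bp in control. The 5′ edge of the widened regions lay 153 and 148 bp before the start in stress, against 104 and 83 bp in control. Over all regions it lay 144 and 141 bp before the start in stress, against 153 and 125 bp in control. Summits moved less than the 3′ edges and lay at 198 and 217 bp in stress, against 102 and 113 bp in control, in the widened regions. The summits of all regions with 1 start lay at 225 and 240 bp in stress, against 163 and 169 bp in control. The peaks of the widened regions covered 33.25% and 35.93% of the gene at the median in stress, against 16.6% and 15.08% in control. Those of all regions with 1 start covered 31.77% and 34.06% in stress, against 25.16% and 22.8% in control. In control, 22.2% and 28.1% of the widened regions had peaks that began after the gene start, against 9.08% and 16.7% of all regions. In stress the shares were 8.41% and 5.37%, against 8.72% and 7.75% of all regions.

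**Figure D3:**
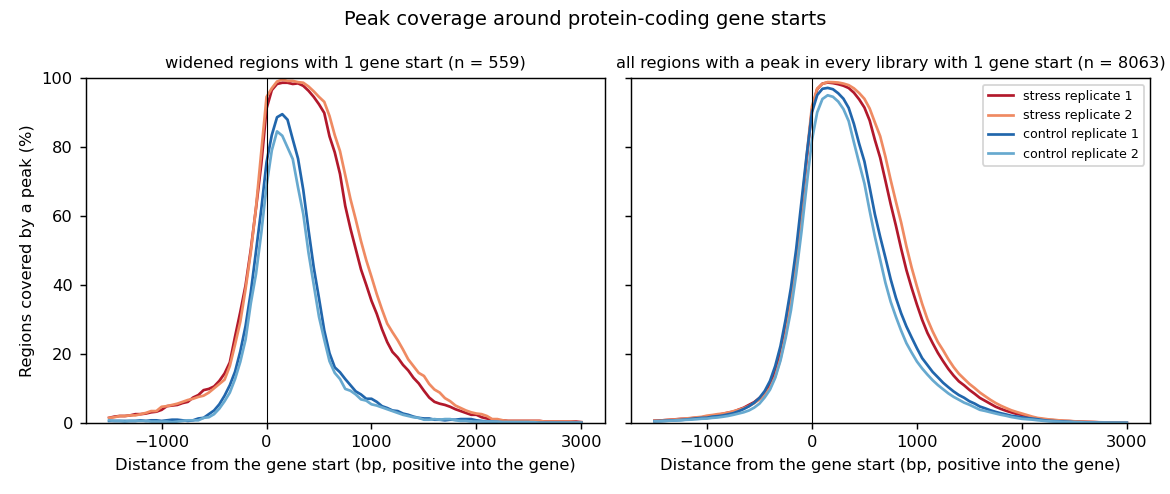
Share of regions (%) covered by a peak at each distance from the gene start (bp, positive into the gene), for the 559 widened regions with 1 gene start (left) and the 8063 regions with 1 start and a peak in every library (right), 1 line per library. At 750 bp into the gene, 62.97% and 71.91% of the widened regions were covered in stress replicates 1 and 2, against 12.7% and 9.84% in control replicates 1 and 2; over all regions the shares were 63.52% and 70.53% in stress, against 41.7% and 35.16% in control.

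The added sequence was mostly coding. Coding bases made up 53.11% of the added bases of the widened regions, introns 23.33%, untranslated exons 15.52% and intergenic sequence 6.68%. In the bases of their control peaks, coding sequence made up 34.46%, introns 13.65%, untranslated exons 34.56% and intergenic sequence 15.81%. Over all regions, added bases held 50.25% coding sequence and 29.16% introns. GC content was 39.55% in the added bases, against 38.83% in the control peaks of the widened regions. The genes were about as long as those of all regions, with medians of 2544 and 2626 bp, and had 4 exons at the median, against 5 over all regions. Genes of a single exon made up 18.43% of the widened regions with 1 start, against 12.97% of all.

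Short motifs of stress-related transcription factors were counted in the 250 bases before the start, on both strands. The ABRE core ACGTG, bound by the bZIP factors of abscisic acid signalling, was in 26.3% of the 559 windows, against 24.3% of the 8063 windows and 22.9% of the windows of all 27444 coding genes. The G-box CACGTG, which contains ACGTG, was in 9.30%, against 8.04% and 6.49%. The DRE core CCGAC, bound by DREB factors, was in 11.1%, against 12.9% and 12.0%, and the W-box core TTGAC of WRKY factors in 47.1%, against 45.2% and 44.9%. The repeat GAGAGA was in 19.1%, against 17.1% and 20.6%, and the telo box AAACCCT in 3.76%, against 5.57% and 7.34%. Such matches are a description of these windows and say nothing of binding.

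The largest ratios among regions with 1 gene start were at GNA1 and AT4G22610. GNA1 encodes a glucosamine-phosphate acetyltransferase of the pathway to UDP-GlcNAc. Its region had 1420 and 1532 bp of peak in stress, against 330 and 274 bp in control, a ratio of 4.30, with a log2 signal change of 0.35. The control peaks did not overlap each other there: one lay 717 to 1046 bp and the other 40 to 313 bp after the start, and the stress peaks spanned both. The whole region also lay within PSRP3/2 on the opposite strand, whose start was 85 bp outside it, so the mark cannot be assigned to either gene. AT4G22610 had 1567 and 1677 bp in stress, against 370 and 279 bp in control, and here the control peaks ended before the gene start and the stress peaks covered 95.5% and 100% of the gene. Control peaks that did not overlap each other were found in 10 of the 900 regions (1.11%), against 10 of all 11925 (0.084%). LIL3:1 and AT3G10930 were others of these among the largest ratios. A region without overlapping control peaks needs a longer peak to join them, so the rule favours such regions.

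Of the 25 largest ratios, 4 were at transcriptional regulators of development, grouped here after their values were seen. PLT2 (PLETHORA 2), an AP2-domain factor that maintains the root stem cell niche, had 1868 and 1818 bp of peak in stress, against 464 and 383 bp in control, with a log2 signal change of -0.11. Its 3′ edge lay 1265 and 1520 bp into the gene in stress, against 244 and 237 bp in control, so that 36.8% and 44.2% of the gene was covered in stress, against 7.12% and 6.91% in control. Its signal was low in every library, at 5.38 and 4.28 per 1000000 fragments in stress, against 4.88 and 5.47 in control, and these ranges overlapped. ARF16, an auxin response factor that acts in root cap differentiation, had 1526 and 1654 bp in stress, against 564 and 357 bp in control. LRP1, named from its expression in lateral root primordia, had 1379 and 1014 bp in stress, against 368 and 314 bp in control. Both of these were extended on the downstream side only, by 962 and 670 added bp. GATA19, a GATA-type zinc-finger factor, had 1537 and 1532 bp in stress, against 478 and 423 bp in control. At GATA19 most of the added bases, 534, lay upstream of the control peaks, which sat well inside the gene.

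Other large ratios were at genes of transport, metabolism and calcium signalling. ABCC4, an ABC transporter of the MRP subfamily, had 1638 and 1789 bp in stress, against 340 and 435 bp in control, and its signal was 11.5 and 12.4 per 1000000 fragments in stress, against 7.88 and 8.91 in control. This rise in signal was 0.51 on the log2 scale, within the limit of the rule, and is a description only. AT4G24830, the gene of argininosuccinate synthase in arginine synthesis, had 1165 and 1271 bp in stress, against 321 and 332 bp in control. Its signal was 9.26 and 8.48 in stress, against 9.77 and 10.2 in control, so peaks lengthened where signal was not higher. CAMBP25, a calmodulin-binding protein studied in osmotic stress tolerance, had 1380 and 1706 bp in stress, against 332 and 412 bp in control, with a log2 signal change of 0.12. Its 1093 added bp all lay downstream, and the stress peaks covered 90.96% and 100% of this single-exon gene, against 25.6% and 32% in control. TRM9, of a family of proteins linked to microtubule organisation, had 1652 and 1871 bp in stress, against 357 and 484 bp in control, in a region that lay wholly within APRR8 on the opposite strand. CYP71B34, a cytochrome P450, had 1030 and 1099 bp in stress, against 370 and 328 bp in control. LIL3:1, a light-harvesting-like protein of chlorophyll synthesis, had 1310 and 1273 bp in stress, against 351 and 337 bp in control, and 520 of its added bases lay between the control peaks.

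**Figure D4:**
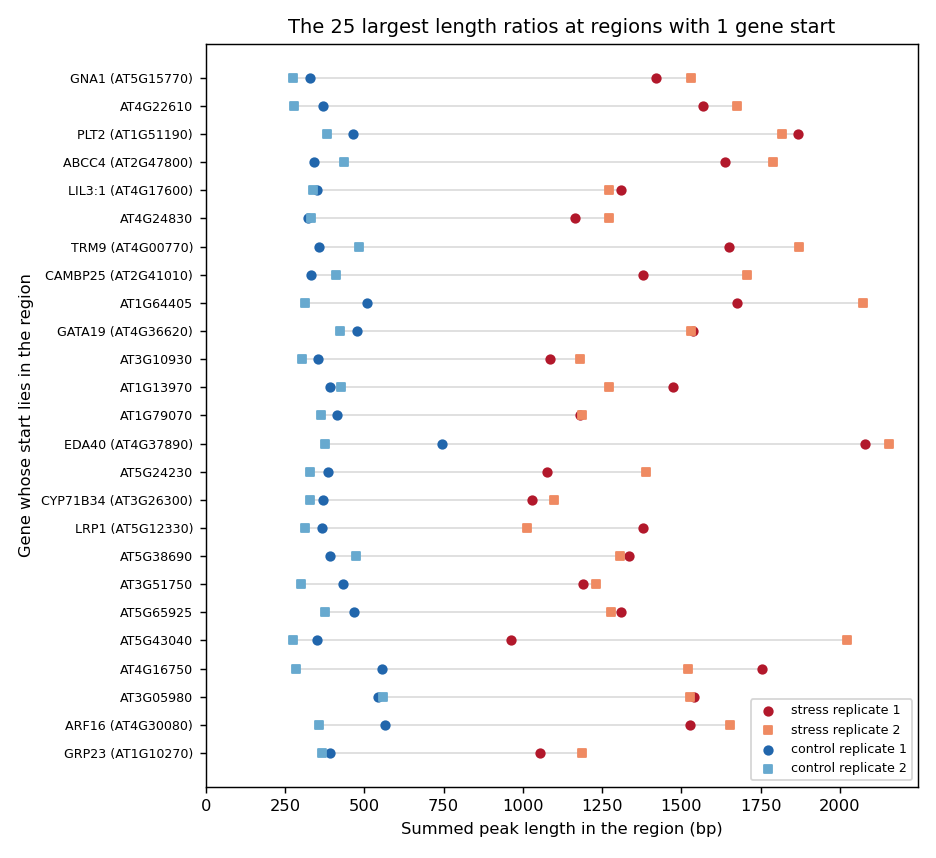
Summed peak length (bp) in the 2 stress libraries (red and orange) and the 2 control libraries (dark and light blue) for the 25 largest length ratios among widened regions with 1 gene start; each grey line joins the lowest and highest library. All stress points lie right of all control points because the rule chose them so, and the spread between replicates is widest at AT5G43040, with 962 and 2024 bp in stress against 352 and 275 bp in control.

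Among the 25 largest ratios, from 4.30 down to 2.70 at GRP23, a pentatricopeptide repeat protein, every ratio also stayed at 1.5 or more after each library was divided by its median length, where they ran from 3.61 to 1.95. Another protein-coding gene overlapped 7 of these 25 regions. EDA40, annotated as a zinc-finger protein and named from embryo sac development, had the most bases added upstream of the control peaks among these 25, 1284. Most of these bases lay inside the gene. Its control peaks began 1237 and 1561 bp after the start, and its stress peaks began 49 and 47 bp before it. EDA40 had 2080 and 2154 bp of peak in stress, against 745 and 375 bp in control. AT1G13970 was extended by 550 bp upstream of its control peaks, which began 45 and 63 bp after the start. Its stress peaks began 968 and 505 bp before the start. Without control replicate 1 the ratio at EDA40 was 5.55 in place of 2.79 and that at ARF16 was 4.27 in place of 2.71. Likewise AT4G16750 gave 5.32 in place of 2.73 and AT1G64405 gave 5.38 in place of 3.29. Without stress replicate 1 the ratio at AT5G43040 was 5.75 in place of 2.73. At these 5 genes 1 library moved the value by more than 1.5 times.

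A list of 31 genes of abscisic acid and osmotic stress responses held no widened member, a count near the background. Of these genes, 14 had their start in a region with a peak in every library and 0 in a widened one, against 828 of the 11291 protein-coding genes with such a start (7.33%), a share that would give about 1 of 14. The list does not hold every gene linked to such stress: CAMBP25, WRKY40 and CBL10, described with other groups, were widened. Both stress lengths exceeded both control lengths in 12 of the 14. P5CS1, the rate-limiting enzyme of proline synthesis, missed by its signal alone: it had 1907 and 1980 bp in stress, against 837 and 789 bp in control, and a log2 signal change of 0.70, above the limit. The dehydrin gene ERD14 had 1886 and 1839 bp in stress, against 1669 and 1652 bp in control, and DREB2A had 2029 and 1971 bp in stress, against 1569 and 1516 bp in control. These peaks were long in control already. Of 28 jasmonate genes, 13 had such a start and 0 were widened. The repressor genes JAZ2 (1761 and 1687 bp in stress, against 1006 and 704 bp in control) and JAZ8 (1528 and 1514 bp in stress, against 580 and 762 bp in control) met the length ratio and missed by log2 signal changes of 0.76 and 0.59. Regions that changed in height as well as in length fall outside the rule by its construction.

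Lists of transcription factor families, matched by gene symbol, held up to 3 widened genes each. Of 22 WRKY genes with such a start, 3 were widened (13.64%, against 7.33% of all protein-coding genes): WRKY40, WRKY42 and WRKY72. WRKY40, a repressor in abscisic acid and defence signalling, had 1905 and 1758 bp in stress, against 840 and 696 bp in control, with 836 of its added bases downstream and a log2 signal change of 0.56, just inside the limit. Of 22 MYB genes 3 were widened (13.64%), MYB50, MYB13 and MYB20. MYB13 had 1105 and 1377 bp in stress, against 534 and 470 bp in control. MYB20, a factor studied in secondary wall formation, had 793 and 1034 bp in stress, against 356 and 388 bp in control. Among genes with such a start whose symbol places them in the list, 0 of 16 ERF and DREB factors, 0 of 21 NAC factors and 0 of 23 heat shock genes were widened. Related genes under other symbols were: AT4G16750 (ratio 2.73) and AT2G44940 (ratio 2.41), which carry the same integrase-type DNA-binding annotation as PLT2, the AP2-domain gene CRF12 (ratio 1.51) and BIP2 of the Hsp70 family (ratio 2.11). These were picked after their values were seen. Of 3 root regulators with such a start, PLT2 was widened, while the peaks of SHR measured 1703 and 1842 bp in stress, against 2043 and 1892 bp in control.

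Enzymes of secondary metabolism gave 7 widened genes of 56 cytochromes P450 (12.5%), against 7.33% of all protein-coding genes. The largest P450 ratios were at CYP71B34, CYP705A8 and CYP705A15. Of 19 UDP-glycosyltransferases 3 were widened (15.79%), UGT71C1, UGT84A2 and UGT71B1. UGT84A2, which glucosylates sinapate, had 2256 and 2202 bp in stress, against 1023 and 571 bp in control, and 1048 of its added bases lay between control peaks. Of 13 glutathione S-transferases 1 was widened (7.69%), GSTT3. Of 9 class III peroxidases 0 were widened, and their median length ratio was 0.94, against 1.12 over all protein-coding genes.

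Among signalling genes, 8 of 102 receptor-like and leucine-rich repeat kinases (7.84%) and 4 of 62 NBS-LRR resistance genes (6.45%) were widened. So were 1 of 38 calcium sensors and calcium-dependent kinases (2.63%) and 16 of 225 U-box and RING ubiquitin ligases (7.11%). The share over all protein-coding genes was 7.33%. The calcium sensor was CBL10, which acts with the kinase SOS2 in salt tolerance, with 1033 and 1165 bp in stress, against 530 and 596 bp in control, and a log2 signal change of -0.28. The kinase AT1G74360 had 1610 and 1754 bp in stress, against 561 and 653 bp in control, with a log2 signal change of -0.26. AT5G22920, a RING-type protein, had 2706 and 2708 bp in stress, against 1145 and 1028 bp in control, and all of its 1569 added bases lay downstream, with a log2 signal change of -0.22. Mean signal was thus lower in stress at these 3 genes, whose peaks were longer.

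Of the genes annotated as ribosomal proteins, 13 of 265 were widened (4.91%), against 7.33% of all protein-coding genes. This annotation takes in genes such as the widened AT1G68660, whose product is also named as a Clp protease adaptor. The median length ratio over this list was 1.10. Of 17 light-harvesting and photosystem genes 3 were widened (17.65%), namely PSBQA in a region shared with the kinesin gene ATK1, PSBX and PSBR. Of 33 core histone genes 4 were widened (12.12%). RAT5, an H2A gene, had 1523 and 1522 bp in stress, against 724 and 670 bp in control, with a log2 signal change of -0.05. These lists hold from 3 to 265 genes whose start lay in a region with a peak in every library, and no test over a list was run. With lengths divided by the library median, 214 of the 828 protein-coding genes stayed widened. By list these were 1 WRKY, 3 MYB, 4 cytochrome P450, 2 UDP-glycosyltransferase, 0 glutathione S-transferase, 2 ribosomal, 0 photosystem and 1 histone gene. Among signalling genes they were 2 receptor-like and leucine-rich repeat kinases, 1 NBS-LRR gene, 0 calcium sensors and 3 ubiquitin ligases.

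**Figure D5:**
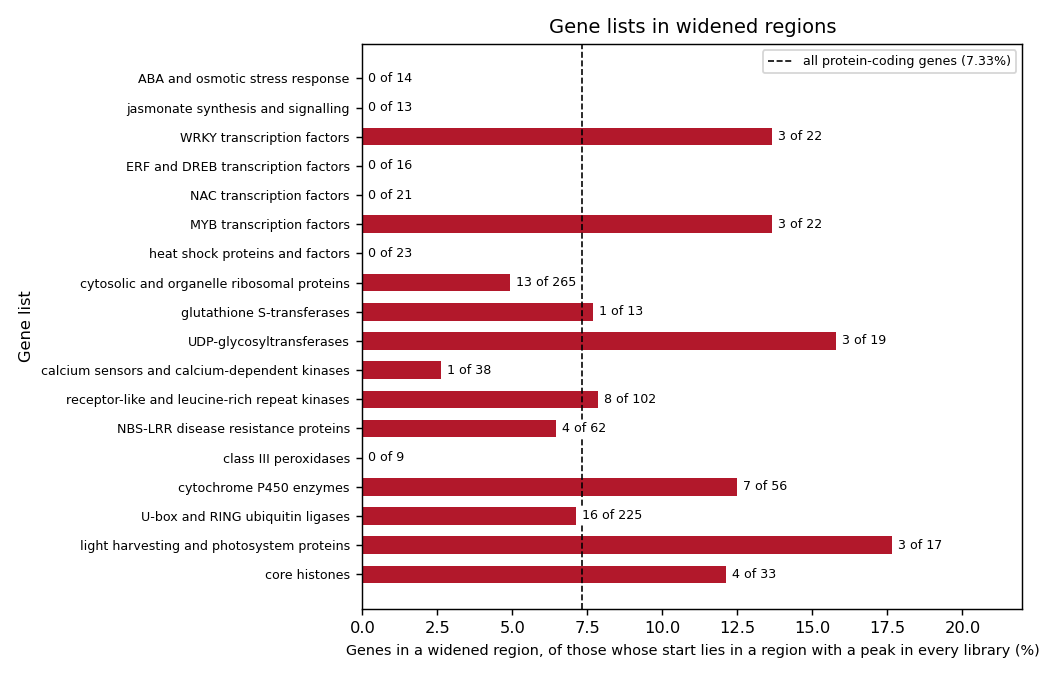
Share of each gene list (%) that lay in a widened region, of the genes of the list whose start was in a region with a peak in every library; the counts stand at the bars. Lists were made of named genes or matched by gene symbol or annotated product, so related genes under other names are not counted. The dashed line marks the 7.33% of all protein-coding genes; the lists with a share above it hold 1 to 8 widened genes each.

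The region narrowed by the exchanged rule held AT1G62820, an EF-hand calcium-binding gene, with 980 and 981 bp in stress, against 1601 and 1509 bp in control. Its signal was 16.7 and 15.9 per 1000000 fragments in stress, against 17.4 and 19.1 in control. The length threshold of the rule cut a continuous range. Just inside it, 2 regions of chromosome 5 without a gene start had ratios of 1.5006 and 1.5017, and the region shared by AT5G27065 and RLP53 had 1.501. Just outside it, WRKY2 had 1.4986, AT3G07950 had 1.49834 and AXL had 1.49833. WRKY2 had 1082 and 1131 bp in stress, against 722 and 617 bp in control. Regions with a ratio of 1.5 or more lay outside the signal limit in 80 cases above it and in 14 below it.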

How the data were processed

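Peak tables of 4 libraries, 2 stress and 2 control, were analysed. Members, gene lists and tests were chosen with earlier results of these data known. Per the file headers, the authors ran MACS 2.2.7.1 per library on fragment pairs at a p cutoff of 1e-05. Duplicates stayed in and no control library was given. The genome size was set to 2700000000 bp and the window for the local background to 10000 bp. Chromosomes 1 to 5 of TAIR10.1 come to 119.1 Mb, so this genome size was not that of Arabidopsis. The thresholds and lengths of the deposited peaks may rest on it, which was not tested. The submitters' processing notes name fastp 0.19.7, Bowtie2 2.3.5.1 and the build TAIR10. The authors deposited for each peak its length in bp and its pileup, a signal in raw fragments. The deposited fold enrichment is a ratio to the background around the peak, and p-values and q-values were deposited as −log10.

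Overlapping peaks were merged, lengths were summed and signal was scaled per 1000000 fragments. On the log2 scale, stress and control were set against each other by limma 3.58.1 (R 4.3.3; lmFit, then eBayes with a trend), at an adjusted p-value threshold of 0.05. In 11925 simulated regions without change limma called 0, and it recovered 95.5% of 200 regions changed in length, with 11 false calls. These counts hold for the simulated regions only. They cannot vouch for the calls on the real libraries, where depth differed between stress and control. Gene starts and sequences came from TAIR10.1 (RefSeq), where the last peak of each of chromosomes 1 to 5 lies within its length. Named were the 25 largest length ratios at regions with 1 gene start, up to 3 widened regions a gene list and the 3 regions on either side of the length threshold. The symbol PHT1;1 was left out of the root regulators. Libraries shared 0 peaks of equal position and pileup. Alternatives covered thresholds, scaling, peak filters, merging, a replicate block and leaving out each library. Tables were made in Python 3.11.15 (pandas 2.3.3).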

Additional observations from a re-analysis of the deposited data

How the results depend on the processing

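The number of widened regions moved from 900 to 2254 with a length ratio of at least 1.3, to 192 with a ratio of at least 2 and to 235 with lengths divided by the library median. It ranged from 1056 to 2635 with 1 library left out, where a rule over 3 libraries is easier to meet. It was highest, for reasons not tested, without control replicate 1, which left the library of fewest fragments as the only control. It was 994 without a signal limit, 601 with a narrower limit, 604 with peaks of −log10 q of at least 10, 976 with fold enrichment, 903 with peaks within 200 bp merged and 846 with lengths from first start to last end.

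Of the limma counts, regions called longer numbered 88 with lengths divided by the library median in place of 1452, and 0 to 3366 with 1 library left out. The 0 stood without stress replicate 1 (2325 at an unadjusted p under 0.05), without stress replicate 2 (1563) and without control replicate 2 (4381), and the 3366 without control replicate 1. Regions called shorter numbered 0 to 15 with 1 library left out, against 13. In these fits the lone library of a group is assumed to vary like the other group. Regions called higher in signal numbered 599 to 766 and lower 673 to 1694 with 1 library left out, against 1221 and 1419. The lower count was 2337 after division by the library median and 684 with fold enrichment, so that higher calls made up 32.69% and 62.29% of the calls, against 46.25%. The cause of these moves was not tested. With the replicate number as a block, 142 regions were called longer and 0 shorter (45 at an unadjusted p under 0.05), and 1090 higher and 1268 lower in signal. Same-numbered libraries did not deviate together across regions (correlation of deviations -0.03 in log2 length). With 2 libraries a group this cannot show whether the numbers pair the libraries, and the labels do not say. Counts of gene starts (868 with a start within 1 kb) and of regions with more bases added downstream (484 with bases in at least 1 stress library) stayed within 1.5 times. Depth limits the peak edges, and no library of equal depth in both conditions was analysed here.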
